A study of Mus musculus with 20 samples.

Results

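The cells described here are the microglia that remained in the spinal cord of mice fed PLX5622, an inhibitor of the receptor Csf1r that is used to deplete microglia. They were taken as every cell that the authors' clustering placed in cluster 0 in the 3 single-cell libraries from PLX5622-fed mice, which gave 216 cells, 29 from sham mice, 61 at 7 days post-injury (dpi) and 126 at 28 dpi, of 1936 cells in those libraries and 21016 cells in all 6. The other 3 libraries came from mice on Vehicle chow, and their 6802 cells of cluster 0 served only as the same-day reference. All mice were C57BL/6J females aged 8 to 10 weeks. The diet, Vehicle or PLX5622 (1200 ppm by the labels, where the study's methods give another ppm value), began 2 weeks before a mid-thoracic contusion (spinal cord injury, SCI) or a sham laminectomy and went on until tissue was taken, so the surviving cells had the compound present throughout. Injured cords were taken at 7 or 28 dpi, and the label of each sham library gives both times. The cord was not perfused, and cells of 3 to 4 mice were pooled into 1 library per condition. There were therefore no replicates. Every interval below is a 95% interval that covers counting error only, no test between conditions was possible, and a difference between libraries cannot be told apart from a difference between the pools of mice.

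Microglia are the resident macrophages of the central nervous system, and in the adult they depend on Csf1r signalling to stay alive. Resting microglia carry a set of surface proteins that sense nucleotides and lipids in the tissue, P2ry12, Gpr34, Siglech and Tmem119 among them, and this homeostatic set is known to be turned down after damage. A second set, called disease-associated, includes the lipid carrier Apoe, the lipase Lpl, the secreted matrix protein Spp1 (osteopontin), the protease inhibitor Cst7 and the receptors Clec7a and Axl, and is known to be turned on where myelin debris is cleared.

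Most cells of cluster 0 in the PLX5622 libraries carried microglial markers. This is a description only, since the clusters were made from the expression of such genes. The study names the cluster by P2ry12, Siglech and Tmem119, so their presence is no separate evidence for the label. Over all libraries the genes that led cluster 0 included Slc2a5, Crybb1, P2ry12, Siglech, Adora3, Col27a1, Tmem119, Gpr34 and P2ry13, of which Slc2a5 encodes a fructose transporter that microglia carry. The 4 marker genes are protein-coding genes placed by the GENCODE M21 annotation of GRCm38 at chr3:59216272-59262871 (P2ry12, minus strand), chr7:55768178-55778925 (Siglech, plus strand), chr5:113793729-113800516 (Tmem119, minus strand) and chrX:13632089-13640858 (Gpr34, plus strand). In the sham PLX5622 library P2ry12 stood at 2111 CPM (a gene's share of all counted molecules in the summed cells, scaled to the same total in each library) in cluster 0 and at 816 CPM in the 9 cells of the cluster of monocyte-derived macrophages (MDMs). A count of any of the 4 markers was seen in all but 1 of the 29 sham cells, all but 3 of the 61 cells at 7 dpi and all but 11 of the 126 cells at 28 dpi.

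The depth behind these cells was small. Their summed counts of unique molecules (UMIs) were 141635 in sham, 383348 at 7 dpi and 429789 at 28 dpi, against 2095992, 6751337 and 7928357 for vehicle microglia. Per cell, however, the PLX5622 cells were the deeper ones, with medians of 5000, 6448 and 2896.5 UMIs against 3178, 2902.5 and 1686. Doublet scores were used to mark a number of cells set in advance by library size, 2, 2 and 7 in the whole PLX5622 libraries. Of the surviving microglia 0, 0 and 1 were among these, which does not measure how many were doublets. A cell barcode that also appeared in another library was carried by 1, 0 and 1 of the surviving microglia. Apoe, a gene of macrophages and astrocytes, was also counted in other cells of the injured vehicle libraries: it reached 52460 CPM at 7 dpi and 45220 CPM at 28 dpi in T and B lymphocytes, against 6447 and 1964 CPM in the lymphocytes of the PLX5622 libraries. The level of the T and B lymphocytes of the same library, 39, 45 and 222 cells with PLX5622 and 90, 343 and 678 with vehicle in sham, at 7 dpi and at 28 dpi, is therefore given beside each result it touches. These were the cells of the authors' T and B cell clusters, which also held markers of NK cells. In sham the summed NK markers stood at 4839 CPM with vehicle and 2064 CPM with PLX5622, against 1729 and 1782 CPM for T cell markers. At 28 dpi NK markers were at 833 and 1952 CPM and T cell markers at 917 and 2062 CPM.

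Microglia made up a smaller share of the cells under PLX5622 at each time. In sham libraries they were 37.5% (35.3 to 39.8, exact binomial interval) of the cells with vehicle and 5.89% (3.98 to 8.36) with PLX5622. At 7 dpi they were 29.0% (27.9 to 30.0) and 12.1% (9.39 to 15.3), and at 28 dpi 40.4% (39.4 to 41.3) and 13.4% (11.3 to 15.8). The vehicle share was thus 6.37-fold the PLX5622 share in sham (4.39 to 9.59), 2.39-fold at 7 dpi (1.86 to 3.14) and 3.01-fold at 28 dpi (2.52 to 3.62).

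A share depends on every other cell type, so the count was also set against endothelial cells of the same library. With vehicle there were 8.22, 6.14 and 9.46 microglia per endothelial cell in sham, at 7 dpi and at 28 dpi. With PLX5622 there were 0.382, 0.753 and 1.94. On this scale, chosen after the data were seen, the PLX5622 ratio was lowest in sham and highest at 28 dpi. Libraries also differed in how many cells they held, from 492 to 940 with PLX5622, and the labels do not give the number of cells per cord.

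**Figure D1:**
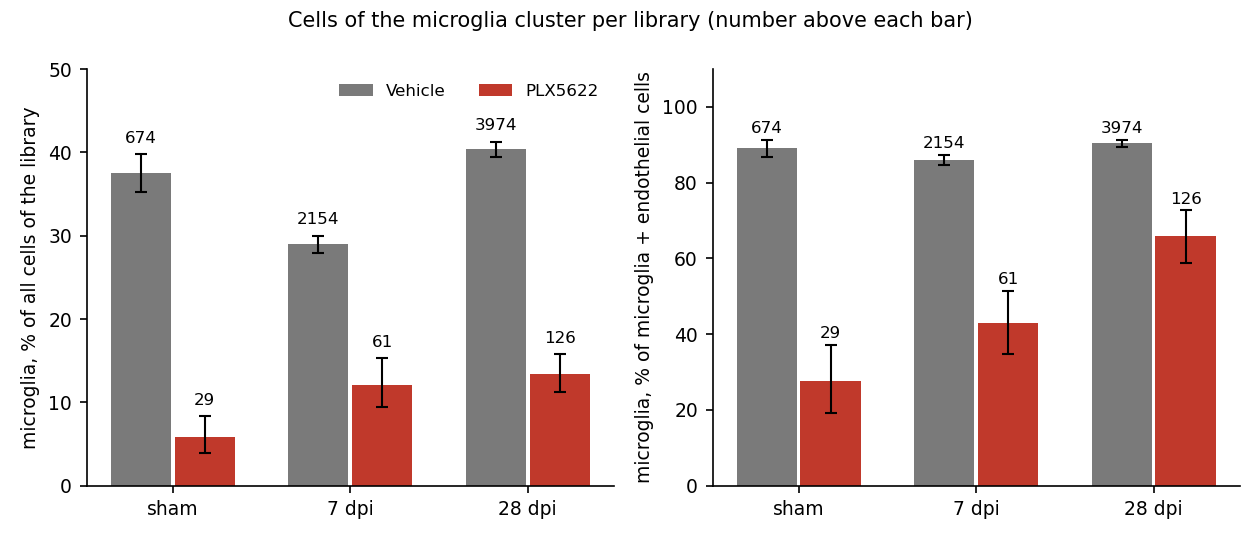
Microglia (cluster 0) as a percentage of the cells in each of the 6 libraries, grey for vehicle and red for PLX5622, with exact 95% binomial intervals. The PLX5622 shares, 5.89%, 12.1% and 13.4%, all lie below the vehicle shares of 37.5%, 29.0% and 40.4%.

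Across all genes the surviving microglia stayed close to vehicle microglia of the same day. After each profile was thinned to 141635 UMIs, the correlation of log levels over 1758 genes was 0.934 in sham, 0.937 at 7 dpi and 0.935 at 28 dpi, while the sham cells on PLX5622 had a correlation of 0.844 with the 7 dpi cells and 0.839 with the 28 dpi cells on the same diet. Between the injured days the values were about as high, so the closeness after injury was not particular to the day. The 7 dpi cells on PLX5622 had 0.932 with 28 dpi vehicle microglia, and the 28 dpi cells had 0.926 with 7 dpi vehicle microglia. The PLX5622 cells of 7 and 28 dpi had 0.935 with each other. These are correlations across genes, which are not independent, and are given as a description. For single genes, a ratio was computed where the gene's mean level was worth at least 10 UMIs in the smaller profile, and a gene was counted as higher or lower where the ratio of CPM was 2-fold or more. In the sham comparison 35 of 2121 genes (1.65%) were higher with PLX5622 and 53 (2.50%) were lower. At 7 dpi 80 of 3821 (2.09%) were higher and 65 (1.70%) lower, and at 28 dpi 87 of 4332 (2.01%) were higher and 77 (1.78%) lower. The split moved with the scaling: edgeR's TMM factors gave 20 higher and 77 lower in sham, 57 and 83 at 7 dpi and 71 and 91 at 28 dpi, and DESeq2's size factors gave 16 and 86, 26 and 156, and 40 and 143. The median log2 ratio of all genes was -0.0001, 0.03 and 0.01 on the CPM scale.

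The gap between sham and injury within PLX5622 was wider than the gap between the diets. Between sham and 7 dpi under PLX5622, 85 of 1859 genes (4.57%) were higher after injury and 303 (16.3%) were lower, and between sham and 28 dpi 116 of 1885 (6.15%) were higher and 271 (14.4%) lower. Both comparisons rest on the same 29 sham cells. Here the scaling decided the balance of higher and lower genes: the median log2 ratio of all genes was -0.33 and -0.30 on the CPM scale but 0.22 and 0.18 with TMM factors and 0.14 and 0.13 with DESeq2's. The counts became 310 higher and 68 lower at 7 dpi and 286 and 76 at 28 dpi with TMM, and 259 and 91, and 268 and 88, with DESeq2. For this reason the medians of gene groups after injury are given relative to the median of all genes, a difference that does not move with the scaling. Between 7 and 28 dpi, 162 of 3932 genes (4.12%) were higher at 28 dpi and 106 (2.70%) were lower.

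Homeostatic genes of the surviving microglia stayed within 2-fold of vehicle microglia. All 16 listed genes could be compared at each time, and none was 2-fold apart between the diets in sham, at 7 dpi or at 28 dpi. The median log2 ratio of PLX5622 to vehicle was 0.02 in sham, 0.10 at 7 dpi and 0.36 at 28 dpi, where 14 of the 16 were above 0. P2ry12, the purinergic receptor that guides microglial processes to damaged cells, stood at 2410 CPM with vehicle and 2111 CPM with PLX5622 in sham, at 351 and 454 CPM at 7 dpi, and at 510 and 745 CPM at 28 dpi. The PLX5622 value was a little below the vehicle value in sham (log2 ratio -0.19, interval -0.36 to -0.02) and above it at 7 dpi (0.37, 0.14 to 0.60) and 28 dpi (0.55, 0.38 to 0.71). Tmem119, a membrane protein used as a microglial marker, was at 1385 and 1737 CPM in sham, 391 and 428 CPM at 7 dpi, and 450 and 626 CPM at 28 dpi, so that PLX5622 was the higher of each pair.

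Siglech and Gpr34 followed the same course. Siglech, a sialic acid receptor, was at 1316 and 1327 CPM in sham, 300 and 402 CPM at 7 dpi, and 473 and 651 CPM at 28 dpi. Gpr34, a receptor for lysophosphatidylserine, was at 1838 and 1680 CPM in sham, 560 and 848 CPM at 7 dpi, and 726 and 821 CPM at 28 dpi. In both genes the sham values differed little between the diets and the injured PLX5622 values lay above the injured vehicle values. These levels were not shared by the lymphocytes, since all 16 homeostatic genes were at least 2-fold above the lymphocyte level in each of the 6 libraries. With lymphocyte counts of 0 set to the floor of 3, the median excess over lymphocytes was 78.8-fold in sham, 7.42-fold at 7 dpi and 52.3-fold at 28 dpi with PLX5622, and 33.4-fold, 4.97-fold and 4.64-fold with vehicle.

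The homeostatic set was lower after injury in the surviving cells, as it was in vehicle microglia. Under PLX5622, 9 of the 16 genes were at least 2-fold lower at 7 dpi than in sham and 8 of the 16 at 28 dpi, against 16.3% and 14.4% of all genes tested, and the median lay 0.77 and 0.71 below that of all genes on the log2 scale. P2ry12 was lower at 7 dpi by a log2 ratio of -2.22 (-2.50 to -1.94) and at 28 dpi by -1.50 (-1.74 to -1.27). Vehicle microglia gave -2.78 and -2.24 for the same gene. The widest gap in the list was that of Slc2a5, at 247 CPM in sham, 28.7 CPM at 7 dpi and 60.5 CPM at 28 dpi, a log2 ratio of -3.11 (-4.23 to -2.10) at 7 dpi from 11 UMIs. P2ry13, another purinergic receptor, was at 480, 93.9 and 158 CPM, and Sall1, the transcription factor that maintains microglial identity, at 290, 112 and 137 CPM.

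The shares of cells with a count told the same order once depth was made equal. Each cell was thinned to 1000 UMIs, which left out 4 of the sham cells, 7 at 7 dpi and 13 at 28 dpi. P2ry12 was then counted in 16 of 25 sham cells (64.0%, 42.5 to 82.0), 23 of 54 cells at 7 dpi (42.6%, 29.2 to 56.8) and 51 of 113 cells at 28 dpi (45.1%, 35.8 to 54.8) under PLX5622. Without thinning the shares were 82.8%, 78.7% and 69.0%. In astrocytes and endothelial cells of these libraries, which lack the gene, it was counted in 0 of 195, 0 of 95 and 3 of 109 thinned cells. Vehicle microglia thinned to 1000 UMIs had shares of 85.0%, 29.2% and 34.2%. At this depth the P2ry12 share was lower with PLX5622 in sham and higher after injury. In sham, Siglech (60.0% with PLX5622, 73.9% with vehicle) and Tmem119 (64.0% and 73.7%) had the same order. Gpr34 had the opposite order in sham, at 96.0% (79.6 to 99.9) with PLX5622 and 79.9% with vehicle.

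Csf1r, the receptor that PLX5622 blocks, differed little from vehicle microglia in the cells that survived it. It stood at 3862 CPM with vehicle and 3855 CPM with PLX5622 in sham (log2 ratio 0.00, -0.13 to 0.12), at 2086 and 2238 CPM at 7 dpi (0.10, 0.0003 to 0.20), and at 1695 and 1917 CPM at 28 dpi (0.18, 0.07 to 0.28). It was counted in 29 of 29, 58 of 61 and 117 of 126 surviving cells. Spi1, the lineage factor of myeloid cells, was at 314 and 311 CPM in sham, 254 and 269 CPM at 7 dpi, and 274 and 258 CPM at 28 dpi, and no pair differed by as much as 2-fold. No UMI of Kit or Flt3, receptors related to Csf1r, was seen in any of the 216 cells.

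Few other genes of Csf1r signalling and of the myeloid factors moved. The list held 18 genes, of which 14 were compared in sham and 15 at each injured time. Maf, a transcription factor of macrophages, was at 554 CPM with vehicle and 261 CPM with PLX5622 in sham (log2 ratio -1.09, -1.60 to -0.61), at 292 and 188 CPM at 7 dpi, and at 258 and 347 CPM at 28 dpi, so the order of the diets turned at 28 dpi. Cebpa, a factor of myeloid differentiation, was at 409 and 586 CPM in sham, 124 and 261 CPM at 7 dpi (1.07, 0.76 to 1.38), and 135 and 142 CPM at 28 dpi. Csf1, a ligand of the receptor, was lower with PLX5622 at 7 dpi (-1.10, -1.95 to -0.37), but from 15 UMIs in 5 cells with 8 of them in 1 cell. None of the 15 was 2-fold apart at 28 dpi. After injury under PLX5622, Cebpa was lower at both times (-1.17 and -2.05). Csf1r itself passed 2-fold at 28 dpi on the CPM scale (-1.01, -1.17 to -0.85). TMM and DESeq2 factors raise the log2 ratios of this comparison by 0.48 and 0.43, which leaves Csf1r within 2-fold. In vehicle microglia Csf1r also stood lower at 28 dpi than in sham, by the levels given above.

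Disease-associated genes were higher after injury in the surviving microglia. Of 22 listed genes, 17 passed the filter in the comparison of 7 dpi with sham and 13 of these were at least 2-fold higher at 7 dpi, against 4.57% of all genes, with none lower. At 28 dpi it was again 13 of 17, against 6.15%. Because a gene that is near 0 in sham passes the filter only by its injured level, all 22 genes were also counted without the filter, and 21 of them had a higher CPM than sham at 7 dpi and 21 at 28 dpi. Of the 22, 5 had no UMI in sham, and such a gene counts as higher with any UMI after injury. The share of all genes with a higher CPM is not given here, so this count has no background beside it. The median of the genes that passed lay 1.83 and 2.23 above that of all genes on the log2 scale.

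Apoe, a lipid carrier, was the most abundant gene of the list. In the surviving cells it stood at 4363 CPM in sham, 73720 CPM at 7 dpi and 35400 CPM at 28 dpi, log2 ratios to sham of 4.08 (3.96 to 4.20) and 3.02 (2.90 to 3.14). Vehicle microglia were at 9039, 80170 and 78690 CPM. At 28 dpi the PLX5622 value was thus the lower one (-1.15), while at 7 dpi the values lay close together (-0.12). The lymphocytes of the PLX5622 libraries held 181, 6447 and 1964 CPM, and the MDMs 34230, 73090 and 74410 CPM.

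Spp1 showed the widest range. It rested on 1 UMI in the sham cells (7.06 CPM), on 593 UMIs in 55 of 61 cells at 7 dpi (1547 CPM) and on 131 UMIs in 43 of 126 cells at 28 dpi (305 CPM). Relative to sham the 7 dpi cells had a log2 ratio of 7.78 (5.29 to 13.1), the 28 dpi cells one of 5.43 (2.93 to 10.7), and 28 dpi over 7 dpi gave -2.34. MDMs of the same libraries held 924, 46910 and 11410 CPM of Spp1 and lymphocytes 6.02, 1237 and 101 CPM. The 7 dpi level in microglia was thus close to that of the lymphocytes of its library, and the 28 dpi level stood well above it.

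Cst7, an inhibitor of lysosomal cysteine proteases, was at 28.2 CPM in sham, 363 CPM at 7 dpi and 675 CPM at 28 dpi under PLX5622 (log2 ratios to sham 3.68, 2.29 to 5.58, and 4.58, 3.21 to 6.46). With vehicle it was at 54.4, 710 and 951 CPM. After thinning it was counted in 4.00%, 33.3% and 33.6% of surviving microglia, and in 0%, 1.05% and 0.917% of astrocytes and endothelial cells. Clec7a, a receptor for beta-glucans, was at 28.2, 316 and 272 CPM, and Lpl, which releases fatty acids from lipoproteins, at 49.4, 250 and 188 CPM. Both were higher than sham by more than 2-fold at each time, whereas vehicle microglia had 440 and 570 CPM of Clec7a and 551 and 881 CPM of Lpl at 7 and 28 dpi.

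Several members had no UMI in the 29 sham cells. For Igf1, a growth factor, the surviving cells held 0 UMIs in sham, 68 at 7 dpi and 84 at 28 dpi. Against the floor of 3 counts in the sham library it was higher by at least 3.07 and at least 3.21 on the log2 scale. Apoc1, a small apolipoprotein of the lipid list, was at 0 UMIs in sham and at 428 CPM at 7 dpi, at least 4.34 higher on the same scale. Cd63, a protein of late endosomes, and Lyz2, lysozyme, were seen in sham and were higher at 7 dpi by 1.50 and 2.06 and at 28 dpi by 1.38 and 2.17. Fth1, the ferritin heavy chain, was at 3798 CPM in sham, 8267 CPM at 7 dpi and 7969 CPM at 28 dpi.

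Against vehicle microglia of the same day, disease-associated genes tended to be lower with PLX5622. In sham 1 of 9 genes compared, Apoe, was 2-fold lower. At 7 dpi 4 of 22 were (Spp1, Lpl, Gpnmb and Fabp5), against 1.70% of all genes, with a median log2 ratio of -0.38. At 28 dpi 7 of 22 were (Apoe, Spp1, Lpl, Itgax, Clec7a, Lgals3 and Vim), against 1.78%, and the median was -0.55 with all 22 below 0. None of the 22 was 2-fold higher at either time. Spp1, whose gap was the widest of the list at 28 dpi, was at 3290 CPM with vehicle and 1547 CPM with PLX5622 at 7 dpi (-1.09, -1.21 to -0.97) and at 3247 and 305 CPM at 28 dpi (-3.41, -3.67 to -3.17). With each cell weighted alike the 7 dpi ratio of Spp1 was 0.25, the opposite direction. Lpl differed by -1.14 (-1.45 to -0.85) at 7 dpi and -2.23 (-2.56 to -1.91) at 28 dpi.

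The vehicle values of these genes stood close to what lymphocytes of the same libraries carried. Lymphocytes of the vehicle libraries held 4980 CPM of Spp1 at 7 dpi and 5058 CPM at 28 dpi, more than vehicle microglia did, and 294 and 500 CPM of Lpl. In vehicle microglia 8 of the 22 genes at 7 dpi and 7 of 22 at 28 dpi were at or below the lymphocyte level, and 6 and 4 were at least 2-fold above it. In the surviving microglia under PLX5622 only Lgals1 and Vim were at or below it at each injured time, and 16 and 18 of the 22 were at least 2-fold above it. The median fold over lymphocytes was 1.47 and 1.53 with vehicle and 3.87 and 12.3 with PLX5622.

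When the lymphocyte level of each library was subtracted from the microglial level, an alternative chosen after the data were seen, the diet difference changed direction. It left out 8 of the 22 genes at each injured time, which did not exceed the lymphocyte level by more than the floor of 3 counts in both libraries. Of the 14 others at 7 dpi, 5 were then at least 2-fold higher with PLX5622 and 2 lower, with a median log2 ratio of 0.68, where the same 14 as measured had -0.29. At 28 dpi 4 of 14 were higher and 1 lower, with a median of 0.34 where they had -0.48 as measured. The homeostatic medians became 0.05, 0.34 and 0.72, in the same direction as before. The change after injury kept its direction under this alternative, with a median of 1.06 over 12 genes at 7 dpi and 1.43 over 12 genes at 28 dpi relative to sham within PLX5622. The subtraction takes free RNA to be the same share of the counts in both cell types, which was not tested. Lymphocytes were shallower than microglia. Their medians at 7 and 28 dpi were 1794 and 1156 UMIs with vehicle, against 2902.5 and 1686 in microglia. With PLX5622 they were 3443 and 2202.5, against 6448 and 2896.5. Free RNA itself was not measured here, and its part in the lower levels of disease-associated genes with PLX5622 was not tested beyond this subtraction.

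**Figure D2:**
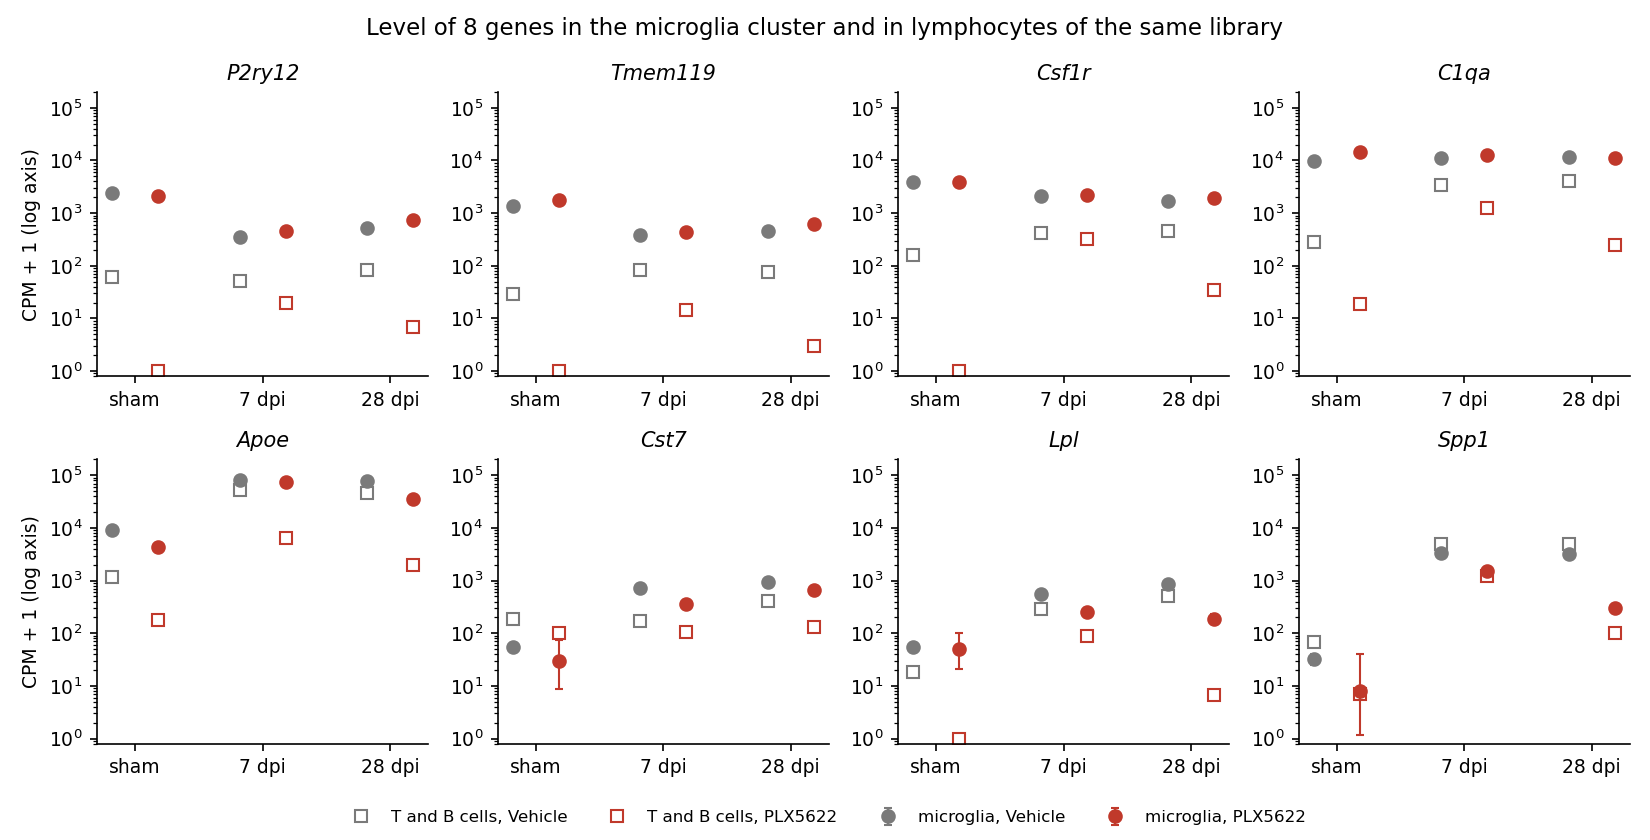
Levels of P2ry12, Tmem119, Csf1r, C1qa, Apoe, Cst7, Lpl and Spp1 in CPM + 1 on a log axis for sham, 7 dpi and 28 dpi, with filled circles for microglia and open squares for T and B lymphocytes of the same library, grey for vehicle and red for PLX5622, and 95% Poisson intervals. P2ry12 lies far above the lymphocytes throughout, while Spp1 in vehicle microglia at 28 dpi (3247 CPM) lies below the lymphocytes (5058 CPM).

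Genes of lipid handling outside the disease-associated list were mostly too low to compare. Of 20 listed, 5 passed the filter in sham, 12 at 7 dpi and 11 at 28 dpi. Abcg1, a cholesterol exporter, was lower with PLX5622 at 7 dpi (148 and 73.0 CPM, log2 ratio -1.02, -1.62 to -0.48), with 117 and 36.7 CPM in the lymphocytes. Apoc1 (-2.03, -2.47 to -1.62) and Plin2, a coat protein of lipid droplets (-1.09, -1.91 to -0.38), were lower at 28 dpi, where the vehicle lymphocytes held 394 CPM of Apoc1 and those under PLX5622 held 5.81. With the lymphocyte level subtracted, Abcg1 turned to 0.24 at 7 dpi and Apoc1 to 0.61 at 28 dpi, the opposite direction. After injury Abca1, another cholesterol exporter, was higher than sham in the surviving cells at 7 dpi (1.42, 0.64 to 2.31) and 28 dpi (1.56, 0.78 to 2.43).

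Few complement, phagocytic receptor and lysosomal genes differed 2-fold by diet. None of the 14 lysosomal genes compared in sham and none of the 15 compared at 7 or at 28 dpi reached 2-fold. C1qa, a subunit of the complement starter C1q, was at 9747 and 14360 CPM in sham, 11290 and 12620 CPM at 7 dpi, and 11850 and 11390 CPM at 28 dpi. C1qb and C1qc, the other subunits, likewise stayed within 2-fold at each time. C3, the central complement component, was the 1 of 9 complement genes past 2-fold at 28 dpi, lower with PLX5622 on 6 UMIs (35.2 and 14.0 CPM, log2 ratio -1.33, -2.79 to -0.19). Trem2, the lipid receptor on which the disease-associated state depends, was at 2829 and 2443 CPM in sham, 3415 and 3094 CPM at 7 dpi, and 3219 and 2545 CPM at 28 dpi. Among 13 phagocytic receptors compared at 7 dpi, Cd14 was higher with PLX5622 (192 and 386 CPM, log2 ratio 1.01, 0.75 to 1.26) and Stab1 lower, and none reached 2-fold in sham or at 28 dpi. After injury C5ar1, the receptor for the complement fragment C5a, was lower than sham in the surviving cells at both times (-1.39 and -1.37).

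**Figure D3:**
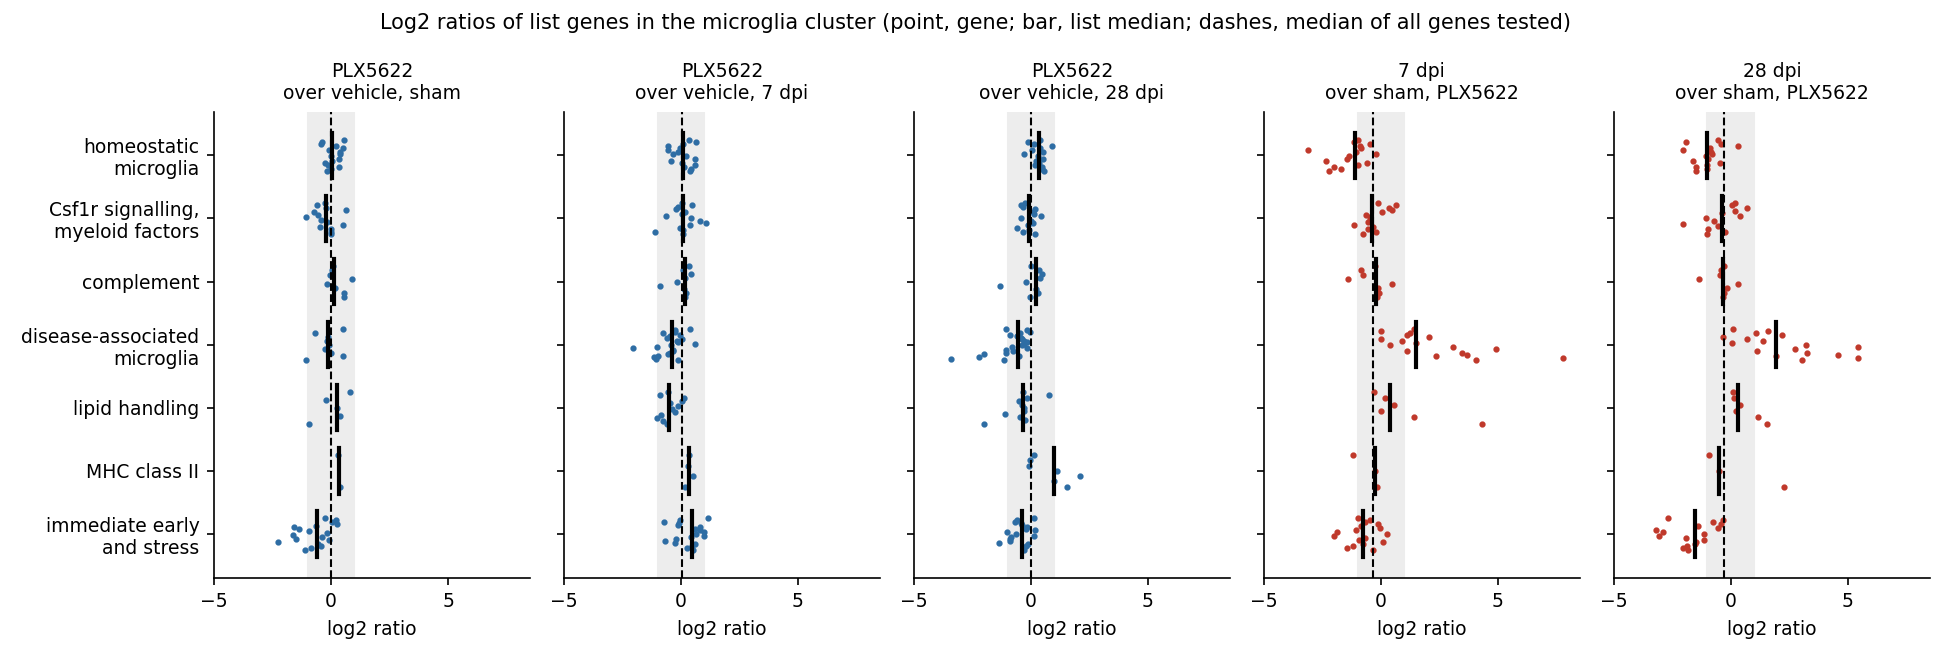
Log2 ratio of CPM for each gene that passed the filter in 7 gene lists and 5 comparisons, 3 of PLX5622 over vehicle and 2 of injury over sham under PLX5622, with a bar at the list median, dashes at the median of all genes and a grey band for ratios within 2-fold (blue, diet comparisons, and red, injury comparisons). All 16 homeostatic genes lie within the band in each diet comparison, and 13 of 17 disease-associated genes lie above it in each injury comparison.

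Antigen presentation differed between the classes. For class I, B2m, the shared light chain, was at 2396 and 2718 CPM in sham, 2360 and 3381 CPM at 7 dpi, and 2928 and 4102 CPM at 28 dpi, with PLX5622 above vehicle at each time by less than 2-fold. Of 10 class I genes compared at 7 dpi, H2-T23 (78.2 and 167 CPM) and Tap2, a peptide transporter, were 2-fold higher, and 1 of 10, the proteasome subunit Psmb9, was at 28 dpi, against 2.09% and 2.01% of all genes. The median of the list was 0.55 at 7 dpi and 0.28 at 28 dpi. H2-T23 was at 87.2 and 192 CPM in the lymphocytes and at 73.0 and 169 CPM in the MDMs of the same 7 dpi libraries, so the same shift was present in those cells.

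For class II, 3 of 7 genes compared at 28 dpi were at least 2-fold higher with PLX5622, against 2.01% of all genes, and the list median was 0.99. Cd74, the invariant chain, was at 33.9 and 84.7 CPM in sham, 66.8 and 75.7 CPM at 7 dpi, and 189 and 405 CPM at 28 dpi (1.10, 0.87 to 1.33). H2-Aa was at 26.1 and 76.8 CPM at 28 dpi (1.56, 0.98 to 2.09) and H2-Eb1 at 14.9 and 62.8 CPM (2.08, 1.42 to 2.69). These counts came from few cells: 13 of the 33 UMIs of H2-Aa and 14 of the 27 of H2-Eb1 lay in 1 cell, and Cd74 was seen in 35 of 126 cells with 50 of 174 UMIs in 1 cell. After thinning H2-Aa was counted in 2 of 113 cells, 1.77%, against 1.86% in vehicle microglia and 1.83% in astrocytes and endothelial cells, so no difference in the share of cells was detectable at this depth. T and B lymphocytes held 2488 CPM of Cd74 in that library.

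Within PLX5622, 4 of 7 class II genes were higher at 28 dpi than at 7 dpi (H2-Aa, H2-Ab1, H2-Eb1 and Cd74), against 4.12% of all genes. At 7 dpi H2-Aa, H2-Ab1 and H2-Eb1 had only 3, 5 and 3 UMIs. They passed the filter only by their 28 dpi level, so this count leans towards higher genes. Cd74 gave a log2 ratio of 2.42 (1.85 to 3.04). H2-Aa rested on 3 UMIs at 7 dpi and 33 at 28 dpi (3.29, 1.62 to 5.64). With every cell thinned to 1000 UMIs, H2-Aa gave -0.65, the opposite direction, and the list median relative to all genes went from 2.36 to -0.44, so the direction of the list depended on this setting.

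A few chemokines and an interferon-response gene were lower in the sham survivors than in sham vehicle microglia. Of 7 chemokine genes compared, 2 were 2-fold lower with PLX5622, against 2.50% of all genes. Ccl3 was at 362 and 106 CPM (-1.77, -2.62 to -1.04), and Ccl4 at 178 and 7.06 CPM, the latter 1 UMI (-4.66, -9.96 to -2.17). Both are chemokines that attract leukocytes. After thinning, Ccl3 was counted in 8.00% of the sham survivors (0.984 to 26.0) and 17.7% of sham vehicle cells (14.6 to 21.2). For Ccl4 the shares were 4.00% (0.101 to 20.4) and 8.94% (6.69 to 11.6). In both genes the intervals of the shares overlap. Ifitm3, an antiviral membrane protein, was at 121 and 21.2 CPM, from 3 UMIs (-2.52, -4.80 to -0.95). Sham lymphocytes held 177 CPM of Ccl4 with vehicle and 144 CPM with PLX5622. Whether these cells, which also held NK cell markers, express Ccl4 themselves was not tested, so this level is not a measure of free RNA.

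After injury the same 3 genes stood higher in the surviving cells than in sham. They were named for their low sham counts, 15, 1 and 3 UMIs for Ccl3, Ccl4 and Ifitm3. The comparisons with injury use those same counts, so a higher level after injury was partly built in. Ccl3 was at 415 CPM at 7 dpi and 316 CPM at 28 dpi, Ccl4 at 347 and 281 CPM, and Ifitm3 at 222 and 261 CPM. Of 6 chemokine genes compared at 7 dpi, 3 were higher than sham, and at 28 dpi 4 of 7 were, against 4.57% and 6.15% of all genes. A gene near 0 in sham, such as Ccl4, passed the filter only by its injured level, so these counts lean towards higher genes. Only 4 of the 20 listed interferon-response genes passed the filter, and 3 of them were higher at each time (Ifi27l2a, Ifitm3 and Bst2), against 4.57% and 6.15% of all genes. Without the filter, 12 of the 18 measured had a higher and 5 a lower CPM than sham at 7 dpi, and 17 and 1 at 28 dpi. Of the 18, 6 had no UMI in sham and count as higher with any UMI after injury, and the share of all genes is not given. Ifi27l2a was at 91.8 CPM in sham, 550 CPM at 7 dpi and 626 CPM at 28 dpi, with 506, 674 and 598 CPM in the lymphocytes. Against vehicle at 28 dpi, Ccl4 was lower (-1.24, -1.51 to -0.98). Ccl5 was higher by 1.46 there, but 131 of its 173 UMIs lay in 1 cell and without that cell the ratio was -0.49.

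Tgfb1 stood out among cytokines. It encodes a cytokine that microglia both make and need for their identity. It was at 79.7 and 240 CPM in sham (1.59, 1.01 to 2.13), 81.3 and 136 CPM at 7 dpi (0.74, 0.30 to 1.15), and 83.3 and 130 CPM at 28 dpi (0.65, 0.23 to 1.04), higher with PLX5622 at each time. The lymphocytes held 37.0 and 84.3 CPM in sham, so the PLX5622 value was the higher one there too, and 55.2 and 68.7 CPM and 80.8 and 56.2 CPM at 7 and 28 dpi. Of the 8 cytokine genes compared in sham it was the only one to pass 2-fold.

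Immediate early genes, which are switched on within minutes of stimulation and also by tissue dissociation, differed in both directions. In sham 6 of 18 were 2-fold lower with PLX5622 (Fos, Egr1, Ier2, Dusp1, Klf4 and Klf6), against 2.50% of all genes, and the median was -0.59. At 7 dpi 1 of 19, Socs3, was higher and the median was 0.46, and at 28 dpi 2 of 19, Egr1 and Klf2, were lower with a median of -0.37. Egr1 was at 1341 and 282 CPM in sham (-2.25, -2.74 to -1.80), 361 and 303 CPM at 7 dpi, and 260 and 100 CPM at 28 dpi (-1.38, -1.85 to -0.94). Fos was at 1563 and 720 CPM in sham, 399 and 566 CPM at 7 dpi, and 247 and 200 CPM at 28 dpi. The time each suspension spent in dissociation is not given in the sources used here, and its part in these values was not tested.

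Within PLX5622 these genes stood lower after injury, most of all at 28 dpi, and they were lower after injury in vehicle microglia too. The log2 ratio of their summed CPM to sham was -0.96 at 7 dpi and -1.63 at 28 dpi under PLX5622, and -1.79 at both times with vehicle. At 7 dpi 5 of 17 and at 28 dpi 13 of 17 were at least 2-fold below sham, against 16.3% and 14.4% of all genes, and the 28 dpi median lay 1.25 below that of all genes. Btg2, an antiproliferative early gene, was at 2669 CPM in sham, 720 CPM at 7 dpi and 358 CPM at 28 dpi (log2 ratios to sham -1.89, -2.12 to -1.66, and -2.90, -3.18 to -2.62). Klf2, a transcription factor that restrains inflammatory genes in myeloid cells, was at 685, 331 and 74.5 CPM. From 7 to 28 dpi 8 of 18 were lower, against 2.70% of all genes. Ribosomal protein genes moved the other way, with 7 of 79 at 7 dpi and 18 of 80 at 28 dpi at least 2-fold above sham and none below, against 4.57% and 6.15% of all genes above, and medians 1.04 and 1.08 above that of all genes. Their summed CPM was also above sham with vehicle, by log2 ratios of 0.86 and 0.67, against 0.70 and 0.82 under PLX5622.

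The genes that stood farthest from sham by rank repeated these groups. At 7 dpi the 10 highest in the surviving cells were Spp1, Ccl4, Fabp5, Apoc2, Apoc1, Apoe, Cst7, Clec7a, Ifitm3 and Wfdc17. The lowest were headed by St3gal5, a sialyltransferase of ganglioside synthesis (332 and 33.9 CPM, -3.29, -4.30 to -2.38), and included Slc2a5, P2ry13, Sox4 and the adhesion receptor Gpr56 (374 and 78.3 CPM). At 28 dpi Klf2, Ier5, Cebpd, Btg2, Socs3 and Txnip were among the 10 lowest. No gene was 2-fold higher after injury on one diet and 2-fold lower on the other, of 1859 compared at 7 dpi and 1885 at 28 dpi.

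Between 7 and 28 dpi some homeostatic genes of the surviving microglia were nearer to sham, and Apoe and Spp1 were lower. P2ry12 was at 454 and 745 CPM (log2 ratio 0.71) and Siglech at 402 and 651 CPM (0.70), while Gpr34 hardly differed (848 and 821 CPM). Of the 16 homeostatic genes 2 were at least 2-fold higher at 28 dpi, against 4.12% of all genes. They were Ltc4s, an enzyme of leukotriene synthesis (250 and 577 CPM, 1.20), and Slc2a5, whose ratio of 1.08 was -0.07 when every cell was thinned to 1000 UMIs. Of 22 disease-associated genes 4 were lower (Apoe, Spp1, Lgals1 and Vim), against 2.70% of all genes. Another 2 were higher (Gpnmb and Ank), against 4.12%, of which Gpnmb turned to -0.16 with each cell weighted alike. Cst7 went the other way from Apoe, at 363 and 675 CPM (0.90, 0.60 to 1.20).

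Single cells showed how the sums were made up. For each cell the homeostatic genes and the disease-associated genes were summed as a percentage of its UMIs. Under PLX5622 the median homeostatic percentage was 7.22% in sham, 3.67% at 7 dpi and 4.49% at 28 dpi, and the vehicle medians were 5.70%, 3.14% and 3.45%. The disease-associated median was 1.63%, 8.86% and 4.32% under PLX5622 and 1.49%, 10.2% and 9.25% with vehicle. At 28 dpi 30 of the 126 surviving cells lay above the vehicle median and 55 lay below the vehicle lower quartile, whereas at 7 dpi 25 of 61 lay above the vehicle median.

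The surviving cells were not uniform within a library. The disease-associated percentage ran from 0.64% to 4.38% in sham, from 2.68% to 32.5% at 7 dpi and from 0.708% to 24.7% at 28 dpi. All 61 cells of 7 dpi held UMIs of Apoe, and after thinning it was counted in 60.0%, 100% and 93.8% of the surviving cells. Astrocytes, which express Apoe, and endothelial cells gave 87.2%, 76.8% and 89.9%, so the share of cells with a count does not separate expression from free RNA for this gene. Cells are not replicates, and these spreads describe 1 library each.

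**Figure D4:**
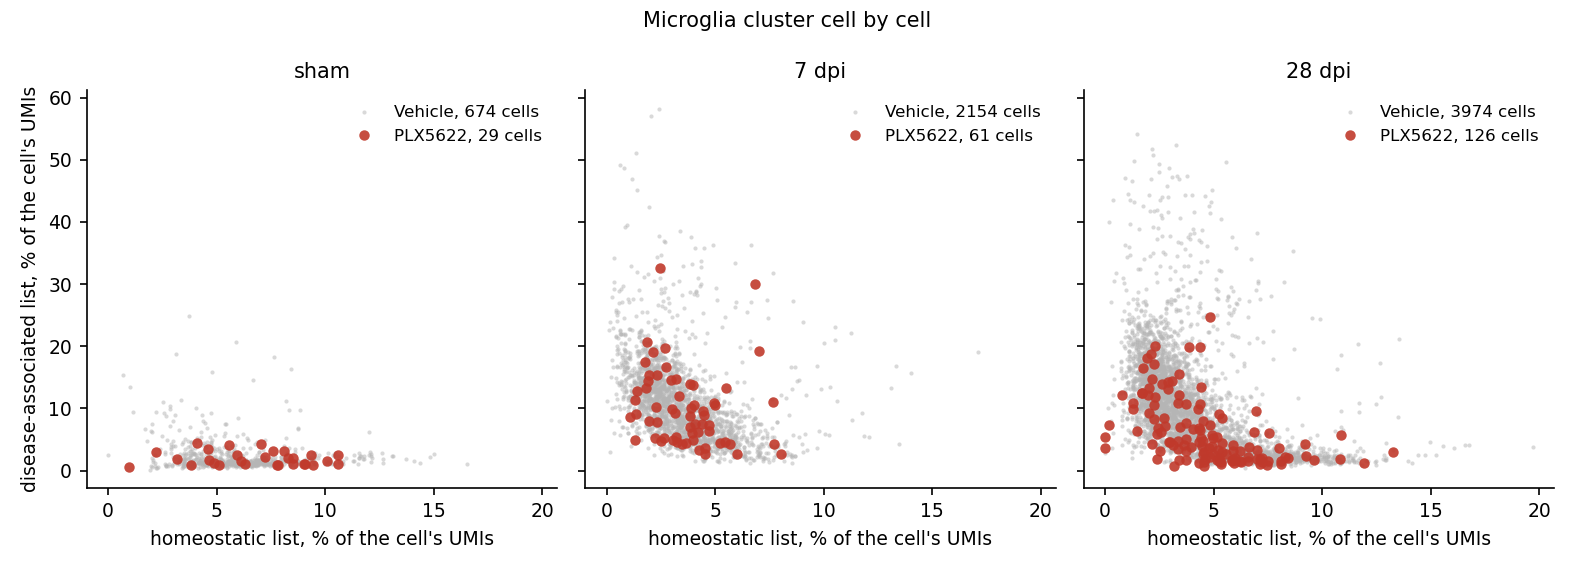
Percentage of each cell's UMIs in the 16 homeostatic genes against that in the 22 disease-associated genes for sham, 7 dpi and 28 dpi, grey points for vehicle and red points for PLX5622 microglia. The red cells overlap the grey cells in each panel, and at 28 dpi 55 of 126 lie below the vehicle lower quartile of the disease-associated percentage.

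Genes of astrocytes and red blood cells came mostly from few cells of the cluster. At 7 dpi the astrocyte gene Gfap was at 11.6 and 123 CPM (log2 ratio 3.41, 2.85 to 3.95), and 39 of its 47 UMIs lay in 1 cell. The haemoglobin gene Hba-a2 was at 71.6 and 367 CPM in sham (2.36) and at 14.8 and 308 CPM at 7 dpi (4.38), with 45 of 52 and 102 of 118 UMIs in 1 cell. The astrocyte glutamate transporter Slc1a2 was also higher with PLX5622 at 7 dpi (13.8 and 49.6 CPM), with 8 of 19 UMIs in 1 cell. In all, 7 of 29, 16 of 61 and 13 of 126 surviving cells held at least 3 UMIs of markers of other cell types.

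Markers of blood-borne and border cells ran the other way. At 7 dpi the neutrophil genes S100a8 (77.3 and 5.22 CPM) and S100a9 (110 and 7.83 CPM) were lower with PLX5622, on 2 and 3 UMIs, and so were Pf4 (98.2 and 20.9 CPM) and Folr2, genes of border macrophages, and the macrophage gene Ms4a7 (169 and 60.0 CPM). Of 5 MDM markers compared 4 were lower at 7 dpi and 2 at 28 dpi, against 1.70% and 1.78% of all genes, and none was higher. Gpnmb, Fabp5 and Spp1 at 7 dpi and Spp1 and Lgals3 at 28 dpi were already counted in the disease-associated list, so they are no separate result. Of the lower MDM markers only Ms4a7 at 7 dpi lies outside that list. Lymphocytes held 325 CPM of Ms4a7 at 7 dpi with vehicle and 0 with PLX5622. The summed MDM markers were at 2006 CPM in the surviving microglia at 7 dpi against 67700 CPM in MDMs of that library, and at 933 against 29200 CPM at 28 dpi, and the part of these RNAs in the diet ratios was not tested. In sham, at 7 dpi and at 28 dpi the 7 monocyte markers summed to 3, 62 and 28 UMIs in the surviving microglia and the 8 border macrophage markers to 1, 18 and 10. Of their defining genes Ccr2 had 0, 1 and 0 UMIs, and Lyve1 and Mrc1 had none.

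**Figure D5:**
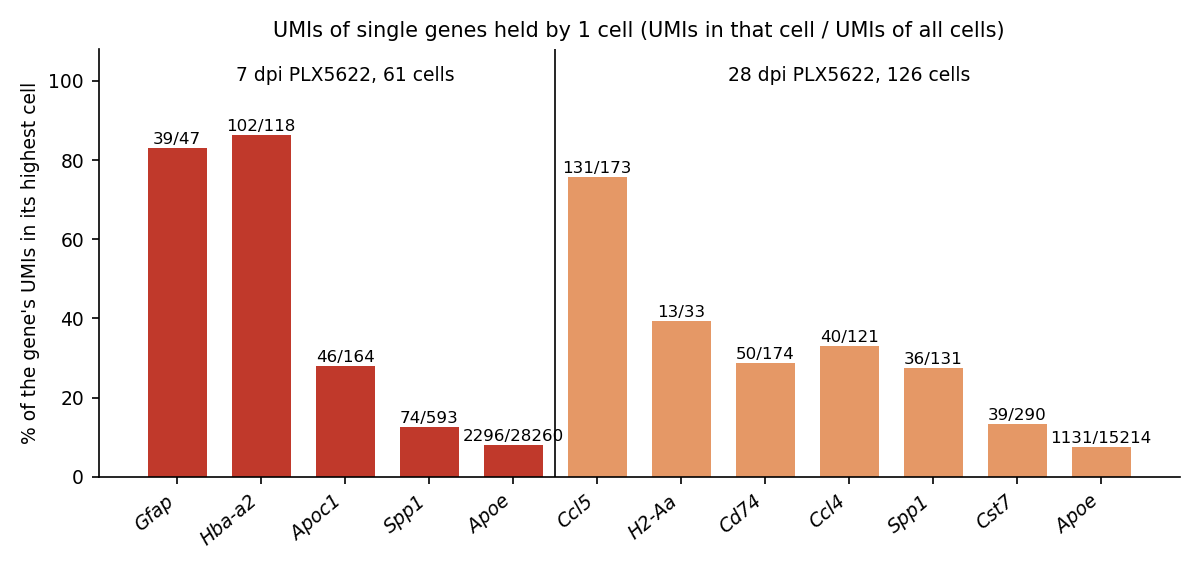
Percentage of a gene's UMIs that lay in its highest cell among the surviving microglia at 7 dpi and 28 dpi. For Gfap (39 of 47), Hba-a2 (102 of 118) and Ccl5 (131 of 173) most UMIs came from 1 cell, while for Apoe the highest cell held 2296 of 28260 UMIs at 7 dpi.

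A few genes that differed by diet in microglia differed likewise in other cells of the library. Gm12191, annotated as a gene model, was at 33.3 and 70.4 CPM in microglia at 7 dpi and at 32.3 and 242 CPM at 28 dpi (2.91, 2.56 to 3.24), with 42.1 and 343 CPM in the lymphocytes at 28 dpi. Rpl34, a ribosomal protein gene, was at 137 and 556 CPM at 28 dpi (2.02, 1.81 to 2.23) and at 231 and 827 CPM in the lymphocytes. Rps27 was higher with PLX5622 in sham (60.6 and 155 CPM) and at 7 dpi (121 and 316 CPM), with 179 and 650 CPM and 177 and 687 CPM in the lymphocytes. In each of these genes the lymphocytes of the PLX5622 library were above those of the vehicle library, as the microglia were.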

How the data were processed

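Single-cell libraries were made from dissociated cord after removal of myelin and dead cells. Per the file headers and the study's methods, the authors aligned reads to GRCm38 (mm10) with Cell Ranger 3.0.2 and clustered cells with Seurat. The deposited table holds raw UMI counts of 16003 genes in 21016 cells with the authors' cluster numbers, used here without re-clustering. Cells of more than 3000 genes, the limit stated in the methods, remain in it (716), the largest microglial cell under PLX5622 having 3523. The 14 bulk libraries were not used here. Counts were summed over the cells of cluster 0 per library. A ratio of CPM has an exact conditional binomial interval, a CPM an exact Poisson interval and a share a Clopper-Pearson interval, all at 95% and for counting error only, and a gene at 0 was set to a floor of 3 counts. Genes worth at least 10 UMIs in the smaller profile were compared, and 2-fold by the point estimate was counted. The named genes were the 4 markers, the members of 21 gene lists, and the 10 highest and 10 lowest genes of each diet comparison and of each comparison of injury with sham that were seen in at least 5 cells. Members and lists were chosen with earlier results of these data known. Alternatives were edgeR 4.0.16 (TMM) and DESeq2 1.42.0 scaling, equal weight per cell, thinning to 1000 UMIs, and filters of 1 and 20 UMIs. Others removed cells with at least 3 UMIs of other types, under 500 genes, a shared barcode or a doublet mark. The mark went to the highest Scrublet scores (scanpy 1.11.5) of a library, at a rate set to 0.8% per 1000 cells. The ratio and thinning steps were tested on simulated data. In the PLX5622 libraries 102 of 594, 29 of 533 and 0 of 940 barcodes were not in the authors' table. A few named genes are not reported here.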

Additional observations from a re-analysis of the deposited data

Results flagged for a closer look

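A pair of genes was more than 2-fold apart between the diets in opposite directions in sham and after injury, and the difference between the times was not tested in either. Col27a1, a fibrillar collagen and one of the genes that lead the microglial cluster, was lower with PLX5622 in sham (log2 ratio -1.05, interval -1.94 to -0.29, from 14 UMIs) and higher at 7 dpi (1.15, 0.65 to 1.61, from 43 UMIs), and stood at 0.02 at 28 dpi. Egln1, an oxygen-sensing prolyl hydroxylase, was higher with PLX5622 in sham (1.37, 0.56 to 2.10, from 18 UMIs) and lower at 28 dpi (-1.02, -2.34 to 0.05, from 7 UMIs). They are 1 gene of 2101 compared in sham and at 7 dpi and 1 of 2112 compared in sham and at 28 dpi, and 0 of 3706 genes were so placed between 7 and 28 dpi. Groups of 1 library gave no value for a sample that stands apart from its replicates.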

How the results depend on the processing

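Of 160 ratios of named genes past 2-fold, 1525 values were computed under alternatives, of which 1515 kept their sign and 1371 were still past 2-fold. The counts of genes higher and lower moved more. With TMM factors they were 20 higher in sham, 310 higher and 68 lower at 7 dpi over sham, and 286 and 76 at 28 dpi over sham. With DESeq2 factors they were 16 and 86 (sham), 26 and 156 (7 dpi), 40 and 143 (28 dpi), 259 and 91 (7 dpi over sham) and 268 and 88 (28 dpi over sham). With each cell weighted alike they were 169 and 101, 404 and 119, and 132 and 147 for the diets, 161 higher at 7 dpi over sham, 425 lower at 28 dpi over sham, and 314 and 427 for 28 over 7 dpi. With cells thinned to 1000 UMIs fewer genes passed: 4 and 10, 15 and 5, and 26 and 26 for the diets, 21 and 30, 42 and 42, and 21 and 30 for the times. With no filter beyond 1 UMI the counts were 4215 and 895, 4558 and 665, 4397 and 754, 537 and 4231, 602 and 4240, and 1663 and 1596, and with 20 UMIs 6 and 21, 20 and 16, 26 and 29, 45 and 115, 75 and 111, and 47 and 29. Without cells holding 3 UMIs of other types 19 were higher in sham, and 182 and 166 lower at 7 and 28 dpi over sham.

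Relative to all genes, weighting cells alike gave medians at 28 dpi of 0.16 for homeostatic, -0.37 for disease-associated and 2.00 for class II genes by diet. Thinning gave 0.42 for class II by diet at 28 dpi, 1.50 for disease-associated genes at 7 dpi over sham, and for class II at 28 over 7 dpi -0.44, the opposite direction. Single genes that turned were Spp1 by diet at 7 dpi (0.25) and Gpnmb at 28 over 7 dpi (-0.16) with cells weighted alike, Gfap at 7 dpi (-0.089) and Ccl5 at 28 dpi (-0.56) by diet without cells holding RNA of other types, Ccl5 without its highest cell (-0.49), H2-Aa (-0.65) and Slc2a5 (-0.065) at 28 over 7 dpi with thinning, and by diet, with the lymphocyte level subtracted, Abcg1 at 7 dpi (0.24) and Apoc1 (0.61) and Clec7a (0.34) at 28 dpi. The cause was not tested. The share of microglia became 27.6%, 43.0% and 66.0% of microglia plus endothelial cells, and 16.2% of cells other than MDMs at 28 dpi.

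No paired analysis was possible because each condition had 1 library, which also leaves no replicate to drop. Depth limits the sham comparisons most, since 10 UMIs in 141635 is the lowest mean level compared there.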

Other observations

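Other groups of the surviving microglia differed little by diet. None of 15 actin and adhesion genes compared in sham and none of 16 at 7 or 28 dpi reached 2-fold. Of the glycolysis and hypoxia genes 1 of 10, Tpi1, was higher with PLX5622 in sham (79.2 and 162 CPM), where the median of the list was 0.65, 1 of 13 at 7 dpi and 0 of 15 at 28 dpi, where the median was -0.33. After injury under PLX5622, 7 of 63 nuclear genes of the respiratory chain were higher at 7 dpi with 1 lower, and 19 of 61 were higher at 28 dpi with none lower, against 4.57% and 6.15% of all genes higher. Their medians lay 0.78 and 0.86 above that of all genes, a difference that does not move with the scaling. Summed CPM of these genes was above sham on both diets, by log2 ratios of 0.52 and 0.67 under PLX5622 and 0.76 and 0.62 with vehicle. Cstb, a cysteine protease inhibitor, was the 1 lysosomal gene of 15 past 2-fold, at 42.4 CPM in sham, 172 CPM at 7 dpi and 219 CPM at 28 dpi.

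Few of the surviving cells held RNA of dividing cells. A UMI of any of 8 cell cycle genes was seen in 2 of 29 (6.90%), 5 of 61 (8.20%) and 8 of 126 (6.35%) of them, against 4.30%, 8.59% and 5.94% of vehicle microglia, which were shallower. Mki67 had 0, 0 and 2 UMIs. Under PLX5622 the microglia of 7 dpi had a correlation of 0.757 over 1758 genes with the MDMs of their library and those of 28 dpi one of 0.809, and the microglia of the 2 times had 0.935 with each other. With the MDMs of the sham vehicle library they had 0.900 and 0.883, above their 0.844 and 0.839 with the sham microglia of their own diet, and with the MDMs of 28 dpi vehicle 0.862 and 0.858.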
